A study of Mus musculus with 18 samples.

Results

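The mitochondrial genome from the first base of the ND1 gene to its end was examined as a miRNA target in cultured mouse keratinocytes. CLEAR-CLIP crosslinks RNA to Argonaute, the protein that carries miRNAs, and ligates each miRNA to the RNA beside it, so that 1 chimeric read names a miRNA and the place of its target. Members were all chimeric reads whose target part lay on the mitochondrial chromosome and began at base 2751 or later, counted from 1 on mm10. They were 28418 of 1153545 chimeric reads (2.46%), on 3303 distinct positions by start, end and strand, with 230 of the 1797 miRNA names. The choice used position alone and no measured difference. At its edge, 52 reads began in the first 50 bases inside and 107 in the last 50 bases outside, in the leucine tRNA gene that comes before.

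The keratinocytes were grown in culture and formed 2 sets with 18 libraries in all. Set 1 held 3 libraries of miR-200 double knockout (DKO) cells and 6 of control cells that carried only K14-Cre, a recombinase under a keratin promoter. Set 2 held 3 libraries of miR-200 DKO cells, 3 of miR-200 inducible cells given 3 µg/ml doxycycline for 24 hours, and 3 of the same inducible cells without doxycycline (uninduced control). All were irradiated at 254 nm with 300 mJ/cm2, and Argonaute 2 was precipitated. The control of set 2 thus carries the inducible construct and that of set 1 does not, and no doxycycline-treated cells without the construct were labelled. Each library came from 1 dish of cells, and the labels do not say whether dishes of a group share an animal. The deposited files pool the libraries of a group, so each group was 1 sample, and every interval below is an exact 95% interval that covers counting error alone. No test between groups was possible. Chimeric reads on 5 basal keratinocyte genes (Krt5, Krt14, Trp63, Itgb4 and Col17a1) made up 0.145% to 0.339% of the pools. All 5 had reads in every pool. Of 5 fibroblast and 5 immune genes, at most 1 and 2 had reads in any pool. Of 4 endothelial genes at most 2 had reads, with 3 to 9 reads in every pool. Of 4 melanocyte genes 1 had reads in each pool, with 1 to 4 reads.

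Mitochondrial DNA is transcribed inside the organelle as long RNAs from both strands. In these RNAs tRNAs lie between the messages, and cutting out the tRNAs releases the mRNAs. The messages encode subunits of the respiratory chain (complexes I, III and IV) and of ATP synthase, and most partner subunits come from the nucleus. miRNAs work mainly in the cytosol, and a chimeric read records that a miRNA and an RNA were ligated on the beads, not that the RNA was repressed.

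The sequences of the miRNAs with most reads on this stretch are shown here, as given by RefSeq (GRCm38.p6), 5′ to 3′ with the seed (bases 2 to 8) in capitals. The first pair led on the tRNA of methionine and on ND2, miR-23a-3p and miR-125b-5p came first and second on CYTB, and miR-24-3p led on ND5.
miR-21a-5p: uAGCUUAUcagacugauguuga
miR-31-5p: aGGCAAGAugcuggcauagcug
miR-23a-3p: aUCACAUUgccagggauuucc
miR-125b-5p: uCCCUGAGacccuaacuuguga
miR-24-3p: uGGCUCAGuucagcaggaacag

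The stretch holds all 13 protein-coding genes of the organelle, but most of its reads lay on a tRNA. TrnM, the methionine tRNA gene (MT, 3845 to 3913, heavy-strand sense; 69 bases), held 22603 reads, 79.5% of the whole. Sense targets in protein-coding genes held 4820 reads (17.0%), other tRNAs on their sense strand 686 (2.41%), antisense targets 283 and the control region 26. With each combination of position, strand and miRNA counted once in a pool, TrnM held 30.7% and protein-coding genes held 54.7%. TrnM took 62.5% (95% interval 57.9 to 67.0) of the stretch's reads of set 1 DKO cells, against 64.8% (61.9 to 67.7) in set 1 control cells. The set 2 values were 71.5% (70.2 to 72.9) in the DKO, 81.1% (80.4 to 81.8) in the induced and 83.5% (82.7 to 84.2) in the uninduced pool. TrnM held the majority of reads in every pool.

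The pools held 48662 (set 1 DKO), 161692 (set 1 control), 210003 (set 2 DKO), 419117 (set 2 induced) and 314071 (set 2 uninduced control) chimeric reads. Of these, the stretch took 0.937% (0.853 to 1.03; 456 reads) in set 1 DKO and 0.665% (0.626 to 0.706; 1075 reads) in set 1 control. In set 2 it took 2.08% (2.02 to 2.14; 4369 reads) in DKO, 3.02% (2.97 to 3.07; 12662 reads) in induced and 3.14% (3.08 to 3.20; 9856 reads) in uninduced cells. Without TrnM the shares were 0.351% and 0.234% in set 1 DKO and control, and 0.592%, 0.572% and 0.518% in set 2 DKO, induced and uninduced control. Every set 2 pool thus lay above both set 1 pools, with TrnM or without it, and what else differed between the sets was not labelled. The ribosomal RNA part of the same genome took 2.64%, 1.35%, 5.49%, 5.97% and 5.87% of the pools in the same order. Of the reads on the stretch, 94.0% to 98.1% lay on the heavy-strand sense, and their target parts were 20 to 101 bases long. Their median length was 43 to 55 bases by pool, against 37 to 40 bases for all other targets.

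Few positions carried most reads. Of the 3303 positions, 2220 had 1 read over all pools, while 59 had at least 100 reads and held 15495 reads together. Of these 59, 57 lay on TrnM. The 10 start positions with the highest mean share held 79.2% of reads, 8 of them in TrnM. Overlapping targets merged into 86 sites, 45 with at least 5 combinations and 20 seen in all 5 pools, while 28 rested on 1 combination. The deepest ran from 3776 to 4190 over TrnM and the start of ND2, with 24385 reads of 124 miRNAs. The next by combinations covered CYTB and the threonine tRNA (14237 to 15359; 768 reads of 98 miRNAs), ND1 and the isoleucine tRNA (3097 to 3774; 482 reads) and the proline tRNA on the light strand (15353 to 15423; 439 reads).

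Reads per kilobase of gene and per 100000 chimeric reads put genes of different length on 1 scale. Full gene lengths were used. COX1 and ND4 lie partly in a stretch with almost no reads, from base 6445 to 10998, described below. This lowers their values, so their ranks against other genes are not firm. On that scale, over all pools, TrnM stood at 28398, the proline tRNA TrnP at 568, the complex I gene ND2 at 158 and the isoleucine tRNA TrnI at 122. The serine tRNA TrnS2 (70.5), the cytochrome b gene CYTB (58.4), the cytochrome oxidase gene COX1 (53.1), the threonine tRNA TrnT (53.0) and the complex I gene ND1 (49.3) followed. ND5 (18.7), ND4 (13.9) and ND6 (9.02), all complex I genes, were lowest among the genes with over 50 reads. The order held for TrnM in each pool, with 8488 and 6247 in set 1 DKO and control and 21573, 35499 and 37973 in set 2 DKO, induced and uninduced control. TrnP came second, with 123 and 194 in set 1 and 1009, 523 and 594 in set 2. Neighbours below it changed places between pools: CYTB stood at 91.2 and COX1 at 61.0 in set 2 DKO, but at 52.6 and 62.9 in the induced pool.

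**Figure D1:**
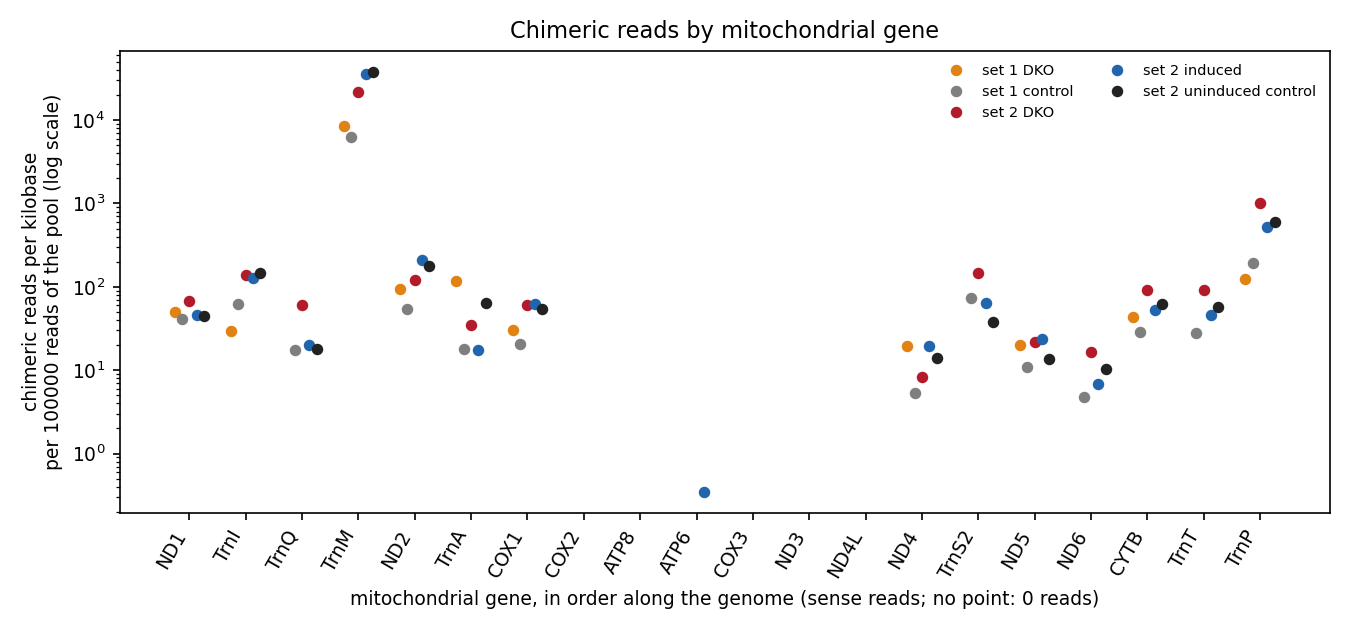
Chimeric reads per kilobase and per 100000 reads of the pool (log scale) for 20 mitochondrial genes in genome order, 1 point per pool, sense reads only; genes with 0 reads have no point, and tRNA genes under 20 reads are not drawn. TrnM lies at 6247 to 37973, far above all others, and COX2 to ND4L are empty but for 1 read on ATP6.

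The protein-coding genes were hit unequally. Of 13, 5 had 0 reads in all pools: the cytochrome oxidase genes COX2 and COX3, the ATP synthase gene ATP8 and the complex I genes ND3 and ND4L. ATP6, also of ATP synthase, had 1. At 3 reads, the share a count of 0 allows was 0.000716% (induced) to 0.00616% (set 1 DKO) of a pool. These 6 genes are neighbours. From base 6445, inside COX1, to base 10998, inside ND4, a stretch of 4554 bases, only 2 reads lay wholly inside: that on ATP6 and 1 on the arginine tRNA TrnR. In the same RefSeq table, chromosome 1 carries the pseudogenes Gm10222 (24612404 to 24612700; 297 bases) and Gm10925 (24613971 to 24614651; 681 bases), the second with mt-Atp6 among its synonyms and as long as ATP6. The span of both held 8 reads over all pools. The sources used here do not say how reads that fit several places were treated, and the part of such copies in the empty stretch was not tested.

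Over all pools ND2 held 1889 sense reads, COX1 946, CYTB 771, ND1 544, ND5 394, ND4 221 and ND6 54. ND6 is the 1 protein-coding gene on the light strand. Targets antisense to it numbered 42, those antisense to ND5 137, and those antisense to ND4 and CYTB 33 each, against at most 18 on any other gene. Over 5 pools, 75 miRNAs had reads on ND2, 126 on COX1, 98 on CYTB and 91 on ND1. Of 19 tRNA genes, 10 had sense reads. After TrnM came TrnP (439), TrnI (97), TrnS2 (48), TrnT (41), the alanine tRNA TrnA (30) and the glutamine tRNA TrnQ (21), with 8 on the leucine tRNA TrnL2 and 1 each on TrnC and TrnR.

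TrnM was almost wholly a target of miR-21a-5p, an abundant miRNA of proliferating and wounded epidermis. It held 22013 of the 22603 TrnM reads (97.4%). In the set 1 DKO pool 282 of its 1554 chimeras lay on TrnM (18.1%, 16.3 to 20.2), and in the set 1 control 690 of 4019 (17.2%, 16.0 to 18.4). The set 2 pools had 3039 of 16116 in DKO (18.9%, 18.3 to 19.5), 10000 of 33470 in induced (29.9%, 29.4 to 30.4) and 8002 of 26504 in uninduced cells (30.2%, 29.6 to 30.7). TrnM was the first target gene of miR-21a-5p in all 5 pools, and the next gene took 2.72% to 9.65%. That next gene was Mir21a, the gene of the miRNA itself, in set 1 DKO (4.38%), set 1 control (9.65%) and set 2 DKO (2.87%). It was Rn18s-rs5 in induced (2.72%) and uninduced cells (3.87%). All other miRNAs together put 0.00637% and 0.00444% of their chimeras on TrnM in set 1 DKO and control, and 0.0449%, 0.0690% and 0.0789% in set 2 DKO, induced and uninduced control. Among other miRNAs with at least 500 reads in a pool, the highest share on TrnM was 0.692%, for miR-30e-5p in the uninduced pool.

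The miR-21a-5p targets on TrnM had sharp edges. Starts at bases 2, 6 and 7 of the tRNA (3846, 3850 and 3851) opened 22.4%, 22.2% and 25.7% of these reads. Base 3846 opened 44.0% in set 1 DKO and 42.2% in set 1 control, against 23.9%, 21.0% and 21.0% in set 2 DKO, induced and uninduced control. Ends lay most often at base 3889 (23.2%), with 3908 (9.05%) and the last bases of the gene behind it. The ends also differed between pools, since 26.6% of set 1 DKO reads ended at 3914, just past the gene, against 11.2% in set 1 control. In set 2 that share was 3.42% in DKO, 8.24% in induced and 3.75% in uninduced cells. Of the 22013 reads, 22006 covered bases 3866 to 3868.

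The TrnM counts of set 2 were limited by the barcodes. No pool held 2 reads of the same position, strand, miRNA and 4-base barcode, so 1 combination can hold at most 256 reads with barcodes free of unread bases. One TrnM combination with miR-21a-5p held all 256 in the uninduced pool. The highest in other pools held 255 in induced, 183 in set 2 DKO, 121 in set 1 control and 41 in set 1 DKO. Combinations with at least 128 such barcodes, 1 in 2 of those possible, held 29.7% of the stretch's reads in the induced pool, 27.5% in the uninduced control and 11.9% in set 2 DKO, and all 33 of them were TrnM with miR-21a-5p. Outside TrnM the highest was 43. Reads present with the same barcode in another pool of the same set made up 67.6%, 45.9% and 55.1% of TrnM reads in set 2 DKO, induced and uninduced control, against 9.90%, 9.43% and 12.8% of the other reads of the stretch. Where nearly every barcode is taken in 2 pools, a shared barcode cannot tell a read that crossed between pools from a separate molecule.

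ND2 begins at base 3914, right after TrnM, and was chiefly a target of miR-31-5p, another abundant keratinocyte miRNA. It gave 1627 of the 1889 ND2 reads (86.1%). Those reads were 32 in set 1 DKO and 64 in set 1 control, and 200 in set 2 DKO, 814 in induced and 517 in uninduced cells. They made up 1.32% (0.906 to 1.86) of all miR-31-5p chimeras in set 1 DKO and 0.972% (0.749 to 1.24) in set 1 control. In set 2 they made up 1.17% (1.02 to 1.35) in DKO, 1.71% (1.60 to 1.83) in induced and 1.49% (1.37 to 1.62) in uninduced cells. The first base of ND2 opened 53.2% of these targets and the base before it 29.0%. All 5 pools shared that edge, since the first base alone opened 48.5% to 62.5% in each. Cover was highest at bases 3927 to 3934, near the 5′ end of the message.

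Targets stopped at the border of the tRNA and the message. Of 22027 miR-21a-5p reads on TrnM or ND2, 1 crossed the border by at least 5 bases on each side (0.00454%, 0.000115 to 0.0253). Of 1681 miR-31-5p reads 2 crossed it (0.119%, 0.0144 to 0.429), and of 784 reads of other miRNAs 1 did (0.128%, 0.00323 to 0.709). TrnM and ND2 targets thus lay back to back with almost no read on both.

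**Figure D2:**
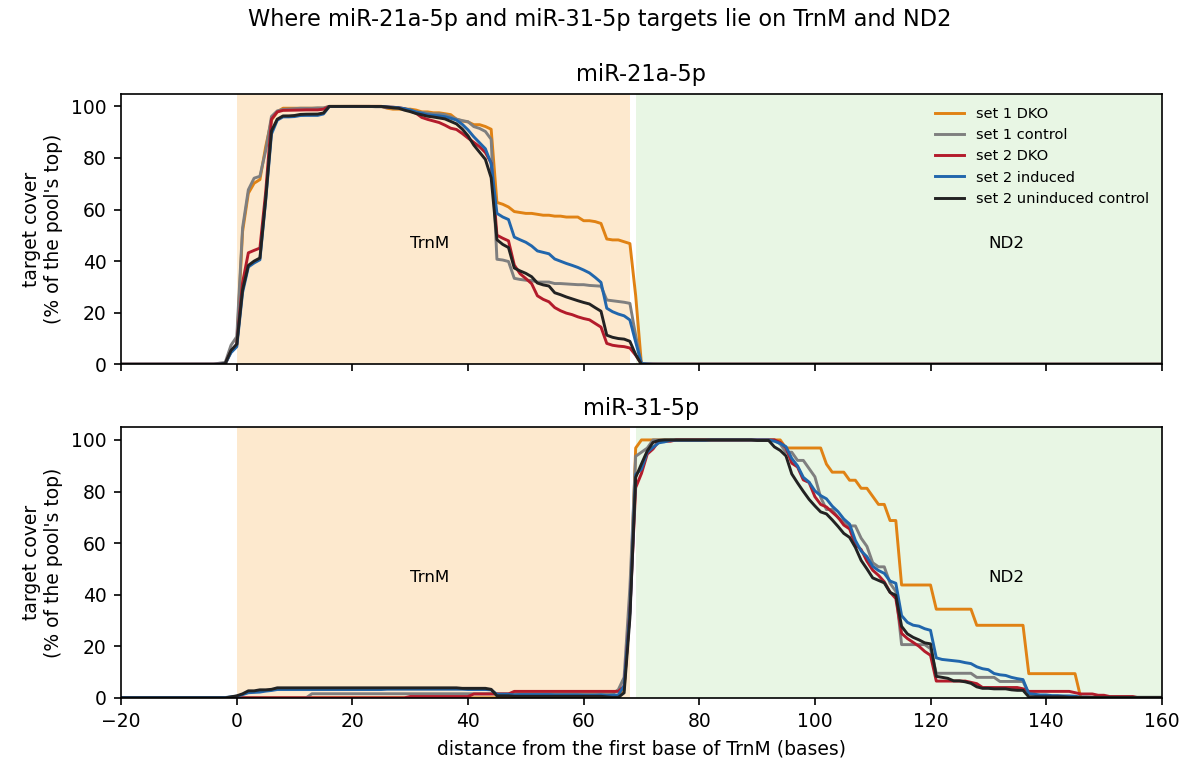
Cover of target parts by miR-21a-5p (top) and miR-31-5p (bottom) along TrnM (orange) and the start of ND2 (green), as % of each pool's highest cover against distance from the first base of TrnM; 1 line per pool. Over all pools, miR-21a-5p cover is highest 21 to 23 bases from the first base of TrnM. Its most common end is at 44 bases (23.2% of reads), and almost no read runs 5 or more bases into ND2. Of the miR-31-5p targets on ND2, 53.2% begin at its first base and 29.0% at the base before it.

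TrnP is read from the light strand, so its 3′ end has the lower coordinate. Its 439 reads came from 97 miRNAs, led by miR-31-5p (13.2%) and miR-21a-5p (6.83%), with no dominant one. At 15356, the last base of the tRNA, 51.3% of targets ended, and at 15390 or 15389 31% and 28.7% began. The cover thus lay on the 3′ part of the tRNA. By pool TrnP had 4 and 21 reads in set 1 DKO and control and 142, 147 and 125 in set 2 DKO, induced and uninduced control.

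The messages carried stacks of single miRNAs. Overlapping targets of 1 miRNA on 1 strand formed 29 stacks of at least 20 reads, from 20 miRNAs, and 10 of them were seen in all 5 pools. On CYTB, miR-23a-3p had 144 reads with its highest cover at 14601 to 14609, and miR-23b-3p, its near-identical relative, had 41 reads with highest cover from 14601 to 14621. The miR-23a-3p reads numbered 2 and 7 in set 1 DKO and control and 47, 48 and 40 in set 2 DKO, induced and uninduced control. Further along CYTB, miR-125b-5p had 76 reads around 15242 to 15260, all of them in set 2. On ND5, miR-24-3p had 90 reads around 12950 to 12969, with 1 and 12 in set 1 DKO and control and 15, 45 and 17 in set 2 DKO, induced and uninduced control.

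COX1 held stacks of the miR-669 family, which is encoded in a large miRNA cluster. miR-669a-5p had 104 reads, miR-669l-5p 40 and miR-669o-5p 25, all reaching base 6023 at their highest cover. The miR-669a-5p reads numbered 3 and 0 in set 1 DKO and control and 5, 70 and 26 in set 2 DKO, induced and uninduced control. Of all miR-669a-5p chimeras, COX1 took 4.36% (3.45 to 5.42) in induced cells and 2.27% (1.5 to 3.29) in uninduced cells. Members of this family are alike in sequence, so that the division among them is less certain than their sum. COX1 also held stacks of miR-484 (30 reads, highest at 5404 to 5421) and of miR-203-3p, which is known from keratinocyte differentiation (25 reads, 5640 to 5661).

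On ND1, miR-669c-5p had 28 reads and miR-186-5p 27. The immune-associated miR-155-5p, chosen after its values were seen, was rare. Of its 54 chimeras in set 1 control 15 were on ND1 (27.8%, 16.5 to 41.6). In set 2, 9 of 138 were on ND1 in induced cells (6.52%, 3.03 to 12) and 12 of 85 in uninduced cells (14.1%, 7.51 to 23.4). The DKO pools had 0 of 1 in set 1 and 0 of 7 in set 2, too few to show a difference. The mitochondrial ribosomal RNA part took 27.8% of its chimeras in set 1 control, and 40.6% in induced and 31.8% in uninduced cells. The ND1 reads of miR-155-5p lay in 2 places, 19 reads with most at 2971 to 3007 and 17 with most at 3620 to 3656, and each place was seen in the same 3 pools.

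**Figure D3:**
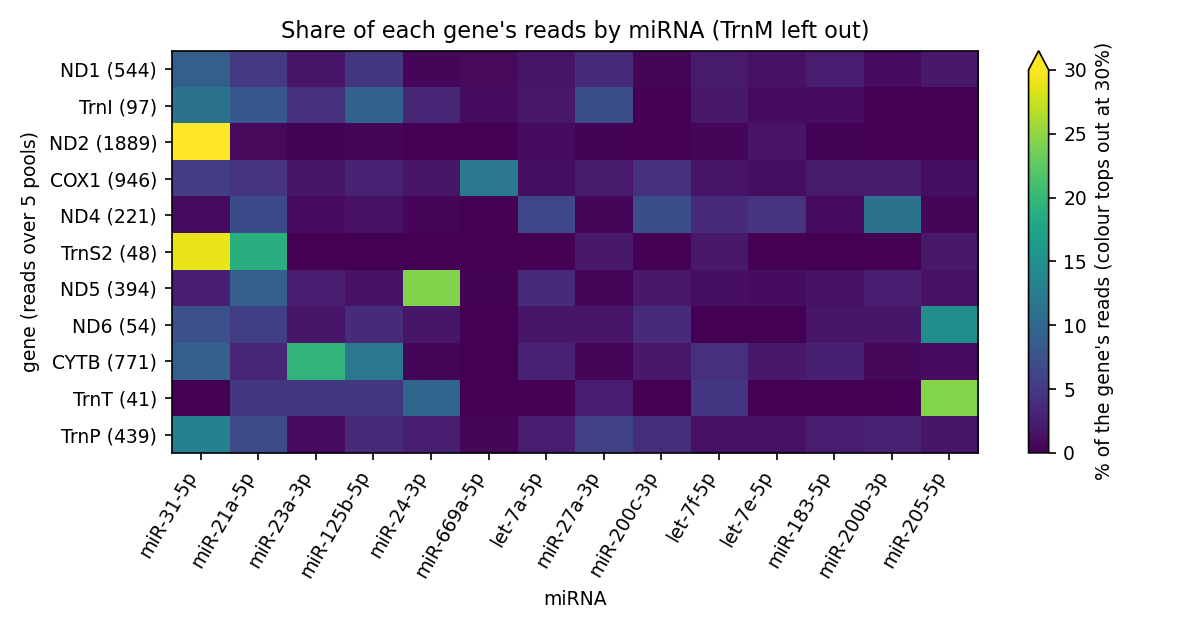
Share of each gene's reads (rows, genes with at least 40 reads other than TrnM, reads over 5 pools in brackets) taken by 14 miRNAs (columns), as colour up to 30%. ND2 is filled by miR-31-5p at 86.1%, while CYTB, ND5 and COX1 each have another leading miRNA (at 19.6%, 24.4% and 12.1%).

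The miRNA makeup of the stretch was set against that of all other reads of the same pool. Of 22 miRNAs with at least 50 reads on the stretch, 1 had a higher share there in all 5 pools, miR-21a-5p, and 9 had a lower share in all 5. Its ratio of shares was 24.0 (21.1 to 27.4) in set 1 DKO and 31.6 (29.1 to 34.3) in set 1 control. In set 2 it was 11.2 (10.8 to 11.7) in DKO, 13.9 (13.5 to 14.2) in induced and 13.5 (13.2 to 13.9) in uninduced cells. This count is set by TrnM, which fills the total. Without TrnM, 21 miRNAs had enough reads, and miR-31-5p and miR-669l-5p were higher in all 5 pools, while miR-205-5p, an epithelial miRNA, was lower in all 5. miR-21a-5p then held 3.51% and 3.17% in set 1 DKO and control and 5.55%, 4.01% and 4.92% in set 2 DKO, induced and uninduced control, on both sides of its share in the rest (ratios 0.697 to 1.54).

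Without TrnM, miR-31-5p held 23.4% (17.3 to 30.5) of the reads in set 1 DKO and 23.3% (19.1 to 27.9) in set 1 control. It held 21.7% (19.5 to 24.1) in set 2 DKO, 38.4% (36.5 to 40.4) in induced and 37.1% (34.8 to 39.5) in uninduced cells. The ratio to its share in the rest was 4.74, 5.76, 2.66, 3.35 and 3.31 in the same order. miR-669l-5p had 1 to 32 reads a pool, so its ratios of 2.89 to 16.6 were loose, and in set 1 control (3.22, 0.0809 to 18.2) and set 2 DKO (2.89, 0.589 to 8.57) the interval included 1. miR-205-5p had 0 reads in set 1 DKO, a share with an upper limit of 2.13%. It had 3 reads in set 1 control (ratio to its share in the rest 0.307, 0.0632 to 0.897). It had 48 (0.705, 0.520 to 0.936), 15 (0.272, 0.152 to 0.448) and 13 (0.303, 0.161 to 0.518) in set 2 DKO, induced and uninduced control. miR-27a-3p was lower than in the rest in the 3 set 2 pools (0.517, 0.222 and 0.326 in DKO, induced and uninduced control), while its set 1 intervals included 1.

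The miR-200 family, which keeps epithelial character and is deleted in DKO cells by their label, had few reads on the stretch. Its members carry 1 of 2 seeds that differ in 1 base, and they are grouped by seed. They are shown because their loss checks the DKO labels.
miR-200b-3p: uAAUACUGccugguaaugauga
miR-200c-3p: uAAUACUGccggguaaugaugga
miR-429-3p: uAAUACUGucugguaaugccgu
miR-200a-3p: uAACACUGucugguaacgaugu
miR-141-3p: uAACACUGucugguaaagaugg

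Outside TrnM the family had 1 of 171 reads in set 1 DKO (0.585%, 0.0148 to 3.22) and 21 of 378 in set 1 control (5.56%, 3.47 to 8.37). Set 2 had 3 of 1243 in DKO (0.241%, 0.0498 to 0.704), 157 of 2396 in induced (6.55%, 5.59 to 7.62) and 71 of 1627 in uninduced cells (4.36%, 3.42 to 5.47). The DKO pools were low in both sets. The ratio of shares was 0.105 (0.00255 to 0.654) for DKO over control in set 1, 0.0553 (0.0111 to 0.168) in set 2 and 1.5 (1.13 to 2.02) for induced over uninduced. Reads outside the stretch gave 0.0477, 0.0532 and 1.35 for the same comparisons. All 1 and 3 reads of the DKO pools were also present, with the same barcode, in another pool of the set.

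**Figure D4:**
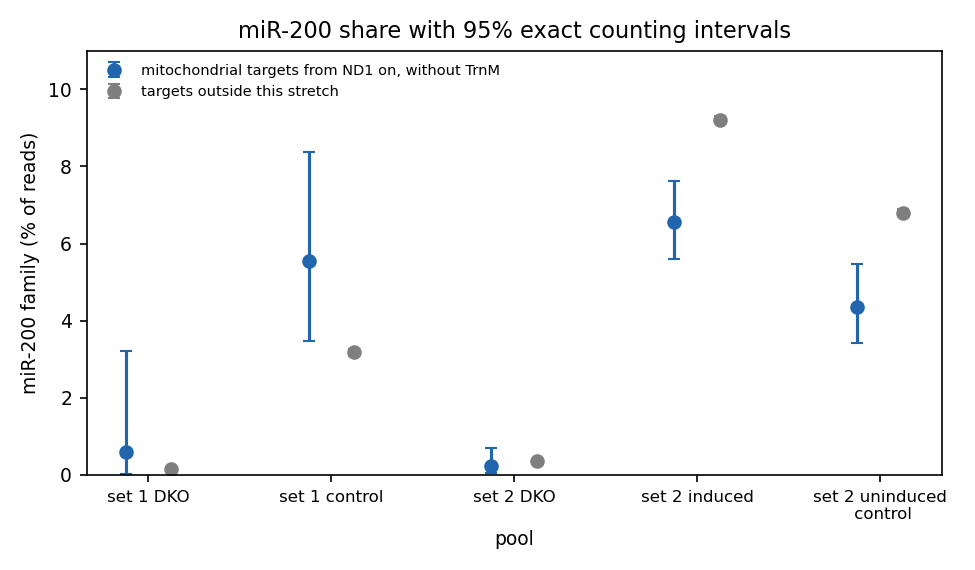
Share of miR-200 family reads (%) in each pool among mitochondrial targets from ND1 on without TrnM (blue) and among targets outside this stretch (grey), with exact 95% counting intervals. Both DKO pools lie at 0.585% and 0.241%, below the controls at 5.56% and 4.36% and the induced pool at 6.55%.

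By gene, the family had 70 reads on COX1, 57 on ND4, 53 on TrnM, 42 on TrnP and 27 on CYTB, but 1 on ND2. On ND4, 25 reads came from miR-200b-3p, 16 from miR-200c-3p and 11 from miR-429-3p, which share a seed, and miR-200b-3p stacked at 11307 to 11324 with 24 reads. These were 0 and 2 in set 1 DKO and control and 1, 16 and 5 in set 2 DKO, induced and uninduced control. On ND4 the whole family had 2, 41 and 11 reads in set 2 DKO, induced and uninduced control. On TrnM, miR-141-3p and miR-200c-3p had 20 reads each.

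Between groups, each gene's share of its pool was compared within a set, and a gene counted as higher or lower past a 1.5-fold ratio with at least 20 reads in the pools compared. In set 1, DKO over control, 4 of 6 protein-coding genes were higher and 0 lower, against 18.7% of all 2182 genes higher and 31.3% lower. Their median log2 ratio was 0.69, against −0.18 over all genes. These set 1 calls depend on the total used. As shares of the stretch without TrnM, the ratios were 0.794 (ND1), 0.978 (COX1), 1.00 (CYTB), 1.14 (ND2) and 1.24 (ND5). Only ND4 was then past the limit (2.39, 1.01 to 5.74). By share of the pool, set 2 DKO over uninduced control had 2 of 7 protein-coding genes higher and 1 lower. Of 4485 genes, 21.1% were higher and 22.5% lower. The median was 0.55 against 0.02. Of 5 tRNA genes, 3 were higher and 1 lower, where set 1 had 2 with enough reads, 0 higher and 1 lower. For induced over uninduced, 1 of 7 protein-coding genes was higher and 1 lower, against 11.4% and 8.60% of 5338 genes, with a median of 0.20 against 0.04. Of 5 tRNA genes, 1 was higher. The 2 set 2 comparisons share their control pool. Whether a lower share reflects fewer cells that make an RNA, less of it per cell or fewer ligations cannot be told apart here.

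Sense protein-coding targets together took 0.304% of set 1 DKO and 0.190% of set 1 control reads (ratio 1.60, 1.30 to 1.95). In set 2 they took 0.447% of DKO, 0.494% of induced and 0.431% of uninduced reads. The ratios to uninduced control were 1.04 (0.952 to 1.13) for DKO and 1.15 (1.07 to 1.23) for induced. The mitochondrial ribosomal RNA part stood at 1.96 (1.82 to 2.10) in set 1, and at 0.935 (0.914 to 0.957) and 1.02 (0.997 to 1.04) in set 2 DKO and induced cells. Its part in the set 1 values was not tested.

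TrnM had 285 reads (0.586%) in set 1 DKO and 697 (0.431%) in set 1 control, a ratio of 1.36 (1.18 to 1.56). In set 2 it had 3126 reads (1.49%) in DKO against 8229 (2.62%) in uninduced control, a ratio of 0.568 (0.545 to 0.592). The DKO pools of the 2 sets thus went opposite ways. The miR-21a-5p share of the whole pool, which includes its TrnM reads, had ratios of 1.28 in set 1 and 0.909 in set 2. Among reads outside the stretch, miR-21a-5p held 2.63% in set 1 DKO and 2.07% in set 1 control. In set 2 it held 6.33% there in DKO and 6.06% in uninduced control. The part of the miR-21a-5p share in the TrnM ratios was not tested. With each combination counted once, the set 2 ratio of TrnM was 0.928 (0.813 to 1.06) and that of set 1 was 1.86 (1.39 to 2.49). Reads of other miRNAs on TrnM, 87 in set 2 DKO and 227 in uninduced control, gave 0.573 (0.442 to 0.737). Induced cells stood at 0.935 (0.908 to 0.962; 10266 reads against 8229), and at 1.11 (1.06 to 1.15) without reads shared within the set.

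ND2 also went opposite ways, with 47 and 91 reads in set 1 DKO and control (1.72, 1.18 to 2.47) and 261 and 574 in set 2 DKO and uninduced control (0.680, 0.585 to 0.789). The miR-31-5p reads on ND2 stood at 0.579 (0.489 to 0.682) in set 2, beside 0.735 (0.721 to 0.748) for that miRNA in the whole pool. ND2 reads of all other miRNAs were 61 in set 2 DKO and 57 in uninduced control, a ratio of 1.60 (1.10 to 2.34). In induced cells ND2 had 916 reads (1.20, 1.08 to 1.33).

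ND4 was the other gene with opposite ratios whose intervals both excluded 1. It had 13 reads in set 1 DKO and 12 in set 1 control (3.60, 1.51 to 8.63), and 24 in set 2 DKO against 60 in uninduced control (0.598, 0.356 to 0.975). In set 1 DKO, 10 of the 13 came from 1 miRNA, miR-744-5p, within 11463 to 11537, at 9 distinct positions and with none shared with another pool. No other pool had miR-744-5p on ND4, and without it the set 1 ratio was 0.831 (0.150 to 3.08). In set 2 the miR-200 family, deleted in DKO cells by their label, gave 2 of the 24 DKO reads and 11 of the 60 uninduced reads. Induced cells had 112 ND4 reads, 41 of them from the family. The 112 reads were 0.0267% of the induced pool, against 0.0191% in uninduced control (interval of the ratio 1.01 to 1.95). The part of the family in the set 2 ratios of ND4 was not tested.

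ND5 was past the 1.5-fold limit in all 3 comparisons. It had 18 and 32 reads in set 1 DKO and control (1.87, 0.988 to 3.43), 83 in set 2 DKO (1.57, 1.14 to 2.17) and 182 in induced cells (1.73, 1.32 to 2.28) against 79 in uninduced control. With each combination counted once, the set 2 DKO ratio stood at 1.41 (0.998 to 1.98), inside the limit, and as shares of the stretch the set 1 ratio stood at 1.33 (0.701 to 2.43). The set 1 ratio without miR-24-3p, which had 1 read in DKO and led in control with 12, stood at 2.82 (1.39 to 5.68). CYTB stood at 1.5 (0.888 to 2.48), just past the limit, in set 1 (1.33 with combinations counted once) and 1.47 (1.21 to 1.78) in set 2 DKO, and at 0.847 (0.704 to 1.02) in induced cells. ND1 stood at 1.19 (0.707 to 1.95), 1.48 (1.16 to 1.90) and 1.02 (0.817 to 1.29), and COX1 at 1.47 (0.858 to 2.44), 1.11 (0.921 to 1.34) and 1.15 (0.980 to 1.34), in the same order. On COX1, miR-669a-5p reads stood at 2.11 (1.34 to 3.40) in induced cells, and all other reads at 1.04 (0.876 to 1.23). ND6 had 18 reads in set 2 DKO (1.58, 0.770 to 3.27), 15 in induced (0.661, 0.307 to 1.41) and 17 in uninduced cells.

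Among tRNAs, TrnP stood at 0.633 (0.158 to 1.88; 4 reads against 21) in set 1 DKO and 1.70 (1.33 to 2.18; 142 against 125) in set 2 DKO. It stood at 0.881 (0.690 to 1.13) in induced cells. TrnS2 had 18 reads in set 2 DKO and 16 in induced cells against 7 in uninduced control (3.85, 1.53 to 10.9, and 1.71, 0.667 to 4.92). TrnT stood at 1.62 (0.682 to 3.88) and 0.812 (0.342 to 1.95), and TrnI at 0.935 (0.507 to 1.69) and 0.866 (0.525 to 1.44), in set 2 DKO and induced cells. Antisense targets of all genes together stood at 1.86 (0.894 to 3.72), 2.08 (1.49 to 2.91) and 1.07 (0.765 to 1.49), on 14 to 91 reads a pool.

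**Figure D5:**
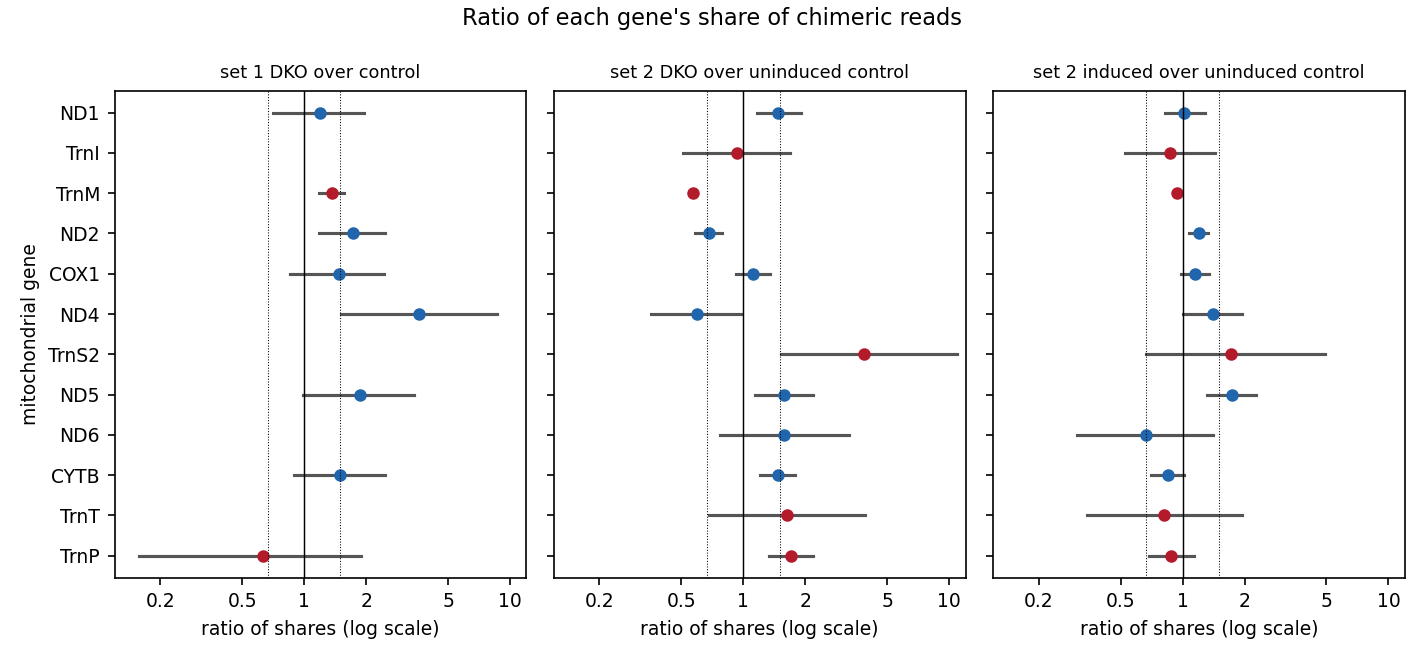
Ratio of each gene's share of its pool (log scale) with exact 95% counting intervals, for genes with at least 20 reads in the pools compared; blue points are protein-coding genes, red points tRNAs, and dotted lines mark 1.5-fold either way. TrnM, ND2 and ND4 lie right of 1 in set 1 DKO (1.36, 1.72 and 3.60) and left of it in set 2 DKO (0.568, 0.680 and 0.598).

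Nuclear partners of these genes were targets too. In 5 lists of 55 nuclear genes, each list took 0.00205% to 0.0620% of a pool. The leading members were Atp5g3 of ATP synthase (254 reads, 60 of them miR-141-3p), Ndufa4, a subunit tied to complexes I and IV (216 reads, 48 of them the hypoxia miRNA miR-210-3p), and Lrpprc, which stabilises mitochondrial messages (139 reads). Ndufs4 (122) of complex I, Cox5a (96) of complex IV and Uqcrc1 (95) of complex III came next. Of all 55, 3 of 4 with enough reads were higher and 1 lower in set 1 DKO, against 18.7% and 31.3% of all genes. In set 2 DKO 1 of 10 was higher and 3 lower, against 21.1% and 22.5%, and in induced cells 2 of 18 were higher and 1 lower, against 11.4% and 8.60%. Atp5g3 stood at 0.606 (0.389 to 0.924; 32 reads against 79) in set 2 DKO and at 0.958 (0.707 to 1.30) in induced cells. Its set 1 ratio was 1.66 (0.808 to 3.26).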

How the data were processed

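Chimeras of a miRNA and its target came from Argonaute 2 precipitates of irradiated keratinocytes, per the labels' protocols. The tools were cutadapt, Novoalign and bedtools and the build was mm10, per the submitters' processing notes, which give no versions. The deposited files hold, in place of counts or signals, other values, namely positions: each line is 1 chimeric read with target start, end and strand, barcode and miRNA. Starts in the files count from 0 and are printed from 1. No file names a library, so each of 5 groups was 1 pooled sample, of 48662 to 419117 reads.

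Targets were assigned to a RefSeq gene (GRCm38.p6) by midpoint and strand; mitochondrial strands are textbook knowledge. Shares carry Clopper-Pearson intervals and ratios the conditional exact interval (Python 3.11.15, SciPy 1.17.1), for counting error only. The ratio interval was tested on simulated counts drawn with counting error alone. These held no spread between libraries and no barcode limit, so that test says nothing on either. Named genes are the 13 protein-coding ones and the tRNAs. Named miRNAs are the 12 leading ones, the miR-200 family and those most shifted against the rest; stacks of at least 20 reads, miR-155-5p and miR-744-5p were chosen after their values were seen. Members and lists were chosen with earlier results of these data known. Alternatives counted combinations once, left out shared reads or marked read names (2 set 1 DKO and 12 set 1 control reads here), or changed totals, gene assignment and minimums. Target sequences were not analysed here. Of 32 miRNA names looked up, 27 had a sequence.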

Additional observations from a re-analysis of the deposited data

Results flagged for a closer look

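The DKO pools of the 2 sets went opposite ways in 3 genes, each with both counting intervals clear of 1; the difference between sets was not tested. TrnM stood at 1.36 in set 1 and 0.568 in set 2, ND2 at 1.72 and 0.680, and ND4 at 3.60 and 0.598 (DKO over control). The leading miRNA of each comparison was then taken out. Without miR-21a-5p, TrnM stood at 1.42 (0.238 to 6.24) and 0.573 (0.442 to 0.737). Without miR-31-5p, ND2 stood at 1.85 (0.913 to 3.60) and 1.60 (1.10 to 2.34). For ND4 the leading miRNA differed. Without miR-744-5p it stood at 0.831 (0.150 to 3.08) in set 1. Without let-7e-5p (1 read in DKO and 7 in control) it stood at 0.649 (0.380 to 1.08) in set 2, with miR-200 reads left in. The control cells differ between the sets, so control and set cannot be told apart.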

How the results depend on the processing

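No paired analysis was possible because the files pool all libraries of a group and name none, so no library could be left out either. Of the values compared under alternatives, 218 stayed within their interval or within 1.5 times, 87 moved, and 6 ratios whose intervals excluded 1 turned to the other side of 1. The causes were not tested.

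Shares of the pool are given in the order set 1 DKO, set 1 control, set 2 DKO, induced, uninduced. The stretch took 0.579%, 0.379%, 0.762%, 0.629% and 0.646% with each combination counted once, 0.351%, 0.234%, 0.592%, 0.572% and 0.518% without TrnM, and 0.304%, 0.190%, 0.447%, 0.494% and 0.431% by midpoint in a protein-coding gene. Without 7 miRNAs overrepresented in set 1 (of 9 planned, whose other names were not known) it took 1.27%, 1.02%, 2.15%, 3.12% and 3.23%. In set 2 it took 1.13%, 2.00% and 1.80% without shared reads, and 2.20%, 3.21% and 3.33% of reads outside mitochondrial rRNA. Without marked names set 1 control stood at 0.719%.

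TrnM held 35.6%, 29.2%, 27.1%, 30.0% and 34.4% of the stretch by combinations. Without shared reads it held 57.4% in set 1 DKO and 47.5%, 71.9% and 72.3% in set 2. By target start it held 69.5%, 79.5% and 80.6% in set 2, and 73.5%, 81.8% and 84.7% of targets wholly within 1 gene.

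miRNAs higher and lower than in the rest numbered 4 and 3 by combinations and 2 and 1 without TrnM. Those lower numbered 26 at a minimum of 20 reads and 4 at 100. The miR-200 ratio of both DKO pools was 0 without shared reads. Sites with at least 5 combinations numbered 127 as 50-base bins and 179 as stacks of 1 miRNA.

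Over protein-coding and tRNA genes together, 4 were higher and 1 lower in set 1 DKO, 5 and 2 in set 2 DKO and 2 and 1 in induced cells. Those tested were 6 protein-coding and 2 tRNA genes in set 1, and 7 and 5 in each set 2 comparison. The share over all genes was taken only past 1.5-fold at a minimum of 20 reads. The counts under other settings thus cannot be set against a general rate. By combinations 1 was lower in set 2 DKO and 0 in induced cells, where 0 were lower without shared reads as well. At a minimum of 10 reads 2 were lower in induced cells. At 50 reads 0 were lower in set 1 DKO, 2 higher in set 2 DKO, and 1 higher and 0 lower in induced cells. Past 2-fold, 1 was higher and 0 lower in each DKO pool, and 0 and 0 in induced cells. With intervals that exclude 1, 0 were lower in set 1 DKO. As shares of the stretch, 1 was higher in set 1 DKO, 8 higher and 0 lower in set 2 DKO and 0 lower in induced cells; without TrnM in that total, 1 was higher in each DKO pool.

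The 6 ratios that turned to the other side of 1 were ND2 in set 2 DKO (1.17 by combinations, 1.03 as a share of the stretch, 1.60 without miR-31-5p), ND4 in set 1 DKO (0.831 without miR-744-5p), and TrnM in set 1 DKO (0.964 as a share of the stretch) and in induced cells (1.11 without shared reads). Barcodes limit TrnM counts in set 2. ND4, ND6 and the tRNAs with fewer reads than TrnP have loose ratios, as has TrnP in set 1 (4 and 21 reads). Those below TrnP, ND4 and ND6 had 0 to 60 reads a pool, but for 112 on ND4 in induced cells.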
